A study of Mus musculus with 12 samples.

Results

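The smooth muscle contractile genes described here are Acta2, Actg2, Tagln, Cnn1, Cnn2, Myl9, Tpm1, Tpm2, Cald1 and Mylk. The rows were found by gene symbol, and each symbol matched 1 row of the gene count table, so they are 10 of its 55573 genes. Their RNA was measured in tumourspheres, which are floating clusters that tumour cells form in serum-free medium, here supplemented with EGF, bFGF, insulin and hydrocortisone. The cells were the spindloid lines A1005, A1129 and A1471, each of the genotype MMTV-Metmt;Trp53fl/+;Cre, that is, with a mutant Met transgene driven by the mouse mammary tumour virus promoter, a floxed Trp53 allele beside a normal copy, and Cre recombinase. Each line came from a spindloid tumour, the spindle-celled mesenchymal type of this model, so a line stands for its own tumour only. Every line received, over 24 h, either DMSO (the vehicle), 1 µM Crizotinib (a Met kinase inhibitor), 1 µM PD173074 (an FGF receptor kinase inhibitor) or both at those doses (Combo). This gave 12 libraries, with 1 library per line and n = 3 lines per treatment. Each replicate was therefore a different cell line, and libraries of the same line were paired across treatments.

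Smooth muscle cells, myofibroblasts and the myoepithelial cells that surround the milk ducts all contract with an apparatus of actin filaments and myosin. Its actin comes from Acta2 and Actg2, and the filament is coated by tropomyosins (Tpm1, Tpm2) and by the regulatory proteins caldesmon (Cald1), transgelin (Tagln) and calponin (Cnn1, with Cnn2 in many other cell types). Contraction starts when calmodulin activates the myosin light chain kinase Mylk, which phosphorylates the regulatory light chain Myl9. Many of these genes are switched on by serum response factor (SRF) with its cofactors of the myocardin family, among them the actin-sensing MRTF proteins, while ERK signalling directs SRF to immediate early genes through other partners. SRF binds a DNA element called the CArG box.

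The members fell into 2 groups of very unequal level. Acta2, Actg2, Tagln, Cnn1 and Myl9, the 5 members that are most specific to smooth muscle and myofibroblasts, together had 117 counts in all 12 libraries, while Cnn2, Tpm1, Tpm2, Cald1 and Mylk together had 214490. Of the 60 values of the first group, 31 were 0, 55 were at or under 3 counts and 2 reached 10 counts. Only the second group passed the filter on low counts and was tested, and each of its members had at least 72 counts in every library, so none passed through a single treatment. The 12 libraries held 13031492 to 17750476 counts each (median 14897186), at which 3 counts correspond to 0.169 to 0.230 CPM (the count relative to the size of its library).

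The label of a myofibroblast or myoepithelial-like state was set against the defining markers. Of 8 myoepithelial markers, Krt5, a basal keratin, was at 0 in all libraries, Krt14 reached 11 counts, and 4 were tested. Of 11 myofibroblast and fibroblast markers, Thy1 was at 0 in all libraries, Fap reached 1 count, and 6 were tested, among them Pdgfra, a receptor of fibroblasts, with at least 706 counts in every library. Of 15 other smooth muscle genes, Kcnmb1 was at 0 in all libraries and Myh11, the smooth muscle myosin heavy chain, reached 5 counts. Myocd, the myocardin gene that drives smooth muscle identity, was at 0 in every library. Of 6 mesenchymal markers 5 were tested, among them Vim, an intermediate filament gene, with 30314 to 49234 counts per library. Cdh2, the untested one, had at most 6 counts in any library and was named after its values were seen. Other markers of these lists, named after their values were seen, were read. Col3a1 had 49 to 20994 counts per library, Pdgfrb 7 to 1303 and Mme 8 to 5493. In single libraries Trp63 reached 229 counts, Tnc 407, Postn 242 and Col1a1 13654. The markers were thus mixed, and the label is not used for the whole list. The genes are described below as 5 members near 0 and 5 expressed members that many nonmuscle cells also use. Of 7 skeletal and cardiac muscle markers, Myod1, Myog and Nkx2-5 were at 0 in all libraries, and 2, Tnnt2 and Tnni1, were tested. Endothelial markers had at most 9 counts. The summed level of the myoepithelial list ran from 1.24 to 26.2 CPM with DMSO and from 36.2 to 314 CPM with Combo, mostly from Mme, and that of the myofibroblast list from 181 to 789 and from 349 to 2110 CPM. The pericyte list, of which 2 of 6 were tested, ran from 2.76 to 10.9 and from 3.28 to 32.96 CPM, and the immune list, of which 2 of 4 were tested, from 4.34 to 31.3 and from 8.22 to 42.0 CPM. The part of these cell types in the results below was not tested. Ptprc, a leukocyte gene, had 174 to 339 counts in the 4 A1005 libraries and at most 2 elsewhere, while Adgre1 and Cd3e, other immune markers, had at most 2 counts anywhere. Cd68, the other tested immune marker, was read in every library, with 227 to 439 counts in A1005 and 62 to 173 in A1129 and A1471.

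The promoters are shown for the 3 members whose windows held a CArG box or a near match: Acta2, the marker of myofibroblasts that stayed near 0, Cnn2, the member that rose most clearly, and Myl9, which passed 1 count in 1 line only. The RefSeq promoter table of build GRCm38.p6 held 9 windows, from 250 bases before to 50 bases after the start, for 8 of the 10 members, and Actg2 and Tagln were not matched. A CArG box was taken as CC, then 6 bases that are all A or T, then GG, a pattern that reads the same on both strands, and a near match had 1 G or C among the inner 6 bases. A box lay in 1.63% of all 32851 promoter windows, and a box or a near match in 9.98%. Of the members, Cnn2 and Myl9 held a box, starting 56 and 161 bases before the start. Acta2 held no box by this definition but 2 near matches, starting 84 and 34 bases before the start, and Myl9 held a near match 99 bases before it. Binding of SRF to boxes or near matches was not measured. No match was found in the windows of Cnn1, Tpm1, Tpm2, Cald1 or Mylk, which says nothing of boxes outside these windows. The 200 bases before each start are given 5′ to 3′ on the strand of the gene, at chr19:34255374-34255573 (minus strand), chr10:79988400-79988599 (plus) and chr2:156775264-156775463 (plus), with boxes and near matches in capitals.
Acta2: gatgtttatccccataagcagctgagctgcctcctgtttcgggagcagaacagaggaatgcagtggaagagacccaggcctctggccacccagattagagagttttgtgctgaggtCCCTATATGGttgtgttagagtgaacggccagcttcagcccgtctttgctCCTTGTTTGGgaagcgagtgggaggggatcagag
Cnn2: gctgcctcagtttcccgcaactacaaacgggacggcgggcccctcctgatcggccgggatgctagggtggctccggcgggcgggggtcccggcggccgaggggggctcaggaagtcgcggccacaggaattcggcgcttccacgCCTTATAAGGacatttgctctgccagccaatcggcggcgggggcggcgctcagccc
Myl9: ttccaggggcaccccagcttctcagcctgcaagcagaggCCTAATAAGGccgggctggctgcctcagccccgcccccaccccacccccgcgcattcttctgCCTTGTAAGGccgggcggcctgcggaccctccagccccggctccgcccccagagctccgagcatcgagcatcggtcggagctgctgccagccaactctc

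The smooth muscle actins were almost absent. Acta2 (chromosome 19, 34241090 to 34255590, build mm10, minus strand) had 2, 0 and 0 counts with DMSO in A1005, A1129 and A1471, and 1, 0 and 0 with Crizotinib. It had 1, 1 and 2 counts with PD173074 and 2, 1 and 10 with Combo. Only the Combo library of A1471 stood above 3 counts. It was 3.64-fold higher than the DMSO library of that line when the DMSO count of 0 is set to a floor of 3 counts. That ratio depends on the floor and is not a lower bound. Actg2 (chromosome 6, 83512905 to 83536265, minus strand), the enteric smooth muscle actin gene, had at most 3 counts in any library. As a share of actin counts per kilobase of exon, Acta2 and Actg2 together made up 0 to 0.0158% of the 6 actin genes, and the nonmuscle genes Actb and Actg1 made up nearly all the rest.

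Tagln, Cnn1 and Myl9 were likewise near 0. Tagln (chromosome 9, 45929619 to 45936058, minus strand) had 1, 2 and 0 counts with DMSO, 0, 0 and 1 with Crizotinib, 4, 1 and 1 with PD173074 and 8, 2 and 3 with Combo in A1005, A1129 and A1471. These counts are uncertain, since 1349 of the 1988 exon bases of Tagln overlap Pcsk7 and Gm48529 on the other strand and the use of strand in the counting is not given in the sources used here. Cnn1 (chromosome 9, 22099216 to 22109630, plus strand) had at most 3 counts in any library and 0 in all 3 DMSO libraries. The paralog Tagln2, a transgelin of nonmuscle cells, made up at least 99.9% of transgelin counts per kilobase in each of the 12 libraries. Myl9 (chromosome 2, 156775420 to 156781658, plus strand) had 0, 2, 7 and 50 counts in A1005 with DMSO, Crizotinib, PD173074 and Combo, and at most 1 count in every library of A1129 and A1471. Within A1005 the Combo library was 11.9-fold higher than the DMSO library set to a floor of 3 counts, with no replicate in that line. That ratio, too, is not a lower bound. Myl9 then made up 2.52% of regulatory light chain counts per kilobase, beside Myl12a and Myl12b, the light chain genes of nonmuscle cells. With no filter on low counts, none of these 5 members passed the test of Combo against DMSO with edgeR (adjusted p between 0.267 for Myl9 and 0.788 for Actg2), and Myl9 was the 1 of them with an unadjusted p under 0.05.

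**Figure D1:**
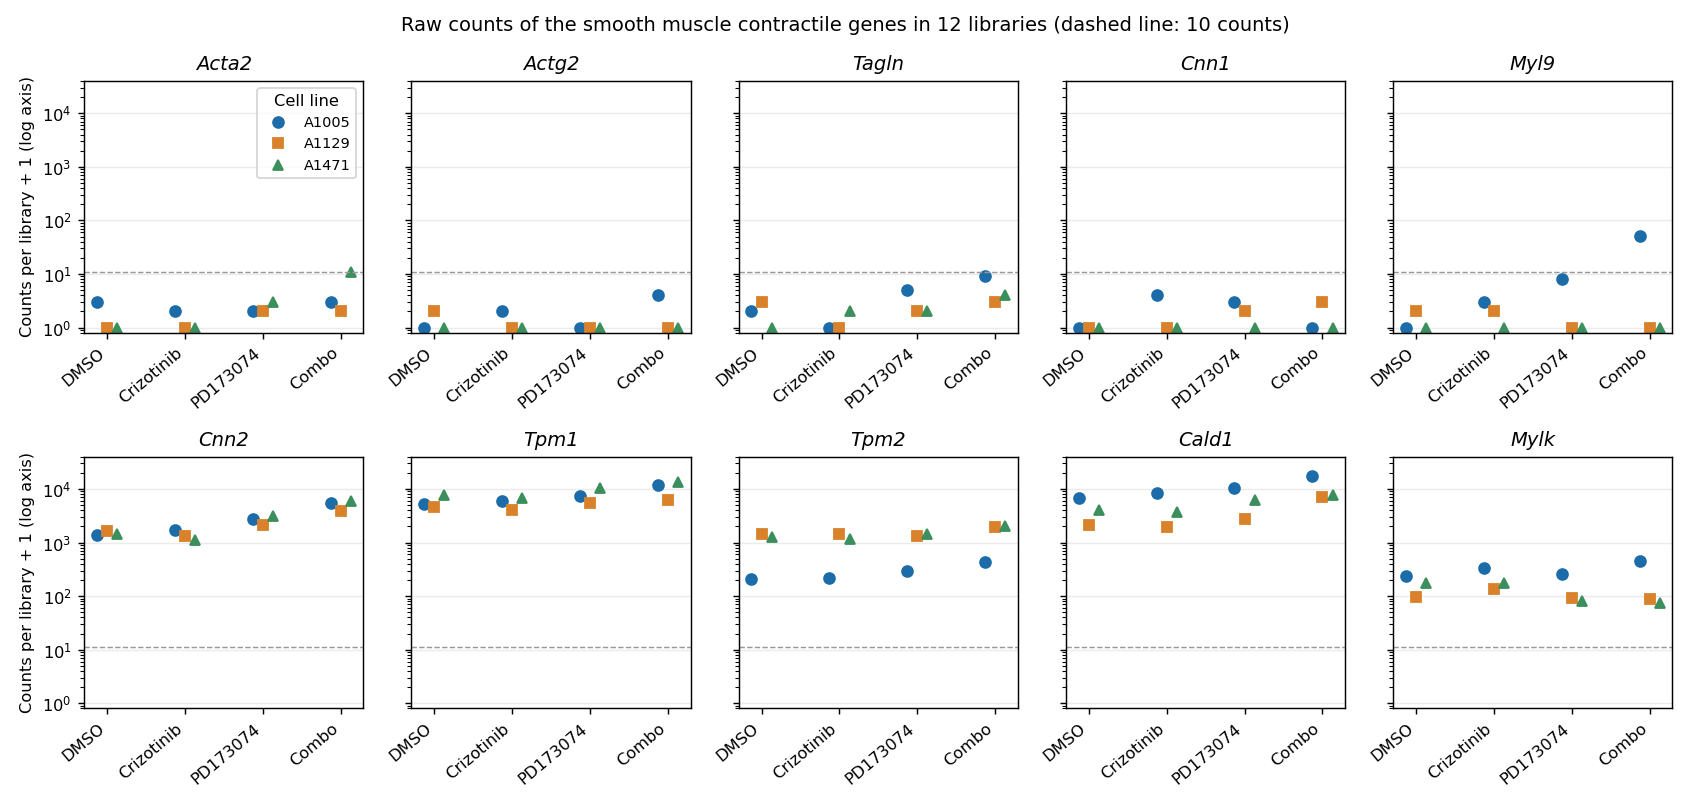
Raw counts of the 10 members in each of the 12 libraries, plotted as counts + 1 on a log axis, by treatment (x axis) and cell line (colour and symbol). The upper row holds the 5 members near 0, of which only Myl9 in A1005 and Acta2 in A1471 reached 10 counts, both with Combo, and the lower row holds the 5 members with at least 72 counts in every library.

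Among the expressed members, levels were compared per kilobase of exon. In the DMSO libraries Tpm1 was highest at 63.8 ± 17.1 CPM per kilobase (SD, n = 3), followed by Cnn2 at 42.5 ± 2.28, Cald1 at 26.1 ± 16.0, Tpm2 at 22.9 ± 15.01 and Mylk at 1.09 ± 0.54. The libraries of Tpm1 (47.2 to 81.3) lay above those of Cnn2 (39.9 to 44.0), and those of Tpm2 (5.64 to 33.1) above those of Mylk (0.57 to 1.65). The ranges of Cnn2 and Cald1 (11.4 to 43.2) overlapped, although Cnn2 was the higher in each of the 3 lines, by the least in A1005 (43.95 against 43.17). Cald1 and Tpm2 did not differ beyond their spread, with Cald1 higher in A1005 and Tpm2 higher in A1129 and A1471. The exon length is that of all annotated exons of a gene, and gene counts do not tell apart the smooth muscle and nonmuscle isoforms that Tpm1, Tpm2, Cald1 and Mylk are known to make.

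Cnn2, a calponin that binds actin in muscle and nonmuscle cells, was the 1 member called higher with Combo in the unpaired fit. Cnn2 (chromosome 10, 79988584 to 79996062, plus strand) stood at 108, 108 and 98.1 CPM with DMSO in A1005, A1129 and A1471, and at 119, 86.8 and 78.9 CPM with Crizotinib. It stood at 167, 153 and 227 CPM with PD173074 and at 306, 245 and 441 CPM with Combo. The Combo libraries all lay above every library of the other 3 treatments, and the PD173074 libraries all lay above every DMSO and Crizotinib library. Against DMSO, Cnn2 rose 3.16-fold with Combo (log2 fold change 1.66 ± 0.25 SE, edgeR adjusted p = 0.00282). Without A1471 the log2 fold change was 1.37 and the edgeR adjusted p 0.0702. Leaving out that line also lowered the calls over all tested genes from 1990 to 120, and the cause was not tested. In the paired fit, which takes the cell line as a block, Cnn2 stood at 1.63 ± 0.21 (edgeR adjusted p = 0.000152). It was called there whichever line was left out.

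The tropomyosin and caldesmon genes were higher with Combo in every line but passed only the paired test. Tpm1 (chromosome 9, 67022590 to 67049406, minus strand), which encodes the alpha tropomyosin, stood at 408, 306 and 527 CPM with DMSO and at 650, 398 and 1007 CPM with Combo in A1005, A1129 and A1471. Its groups overlapped, because the Combo library of A1129 lay below 2 of the DMSO libraries. The log2 fold change was 0.73 ± 0.39 in the unpaired fit (edgeR adjusted p = 0.255) and 0.67 ± 0.13 in the paired fit (edgeR adjusted p = 0.0018). Tpm2 (chromosome 4, 43514711 to 43523765, minus strand), the beta tropomyosin, stood at 16.4, 96.2 and 87.0 CPM with DMSO and at 23.9, 124 and 155 CPM with Combo. Here A1005 was low under every treatment, and the groups again overlapped. The log2 fold change of Tpm2 was 0.60 ± 0.94 unpaired (edgeR adjusted p = 0.739) and 0.59 ± 0.11 in the paired fit (edgeR adjusted p = 0.00108). Cald1 (chromosome 6, 34598500 to 34775473, plus strand), whose caldesmon product restrains myosin on actin, stood at 520, 138 and 286 CPM with DMSO and at 962, 437 and 576 CPM with Combo. Its highest DMSO library, A1005, lay above its lowest Combo library, A1129. The log2 fold change of Cald1 was 1.07 ± 0.64 unpaired (edgeR adjusted p = 0.312) and 1.21 ± 0.17 in the paired fit (edgeR adjusted p = 0.000292).

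Mylk did not move together with the other expressed members. Mylk (chromosome 16, 34745210 to 35002420, plus strand), the kinase of the light chain, stood at 18.6, 6.38 and 11.9 CPM with DMSO and at 25.6, 5.45 and 5.43 CPM with Combo in A1005, A1129 and A1471. A1005 was thus higher with Combo by 0.46 on the log2 scale, and A1129 and A1471 were lower, with log2 changes of -0.22 and -1.12. With PD173074 it stood at 15.5, 6.51 and 5.77 CPM, and with Crizotinib at 22.5, 8.78 and 12.4 CPM. The log2 fold change with Combo was -0.02 ± 0.70 unpaired (edgeR adjusted p = 0.993) and -0.23 ± 0.28 in the paired fit (edgeR adjusted p = 0.5004). Its sign turned positive without A1471 (0.32) and was also positive, near 0, under both other scalings. Mylk shares 772 of its 11263 exon bases with E130310I04Rik and Gm21691 on the other strand, which had 39 counts between them in all 12 libraries.

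Counted over the list, 1 of the 5 tested members was called higher with Combo and none lower in the unpaired fit, where 6.1% of the 13836 tested genes were called higher and 8.28% lower. In the paired fit, 4 of 5 were called higher and none lower, where 28.6% of tested genes were called higher and 26.2% lower, so much of the table was called in that fit. The median log2 fold change of the tested members was 0.73 unpaired and 0.67 in the paired fit, beside medians of 0.02 and 0.03 over all tested genes. Higher in all 3 lines were 4 of 5 members, beside 34% of tested genes. In 1 of 5, Cnn2, all Combo libraries lay above all DMSO libraries, beside 13.8% of tested genes. In RNA from whole tumourspheres, a change in the share of cells that express a gene and a change of its RNA per cell cannot be told apart.

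PD173074 alone gave positive values for 4 of the 5 tested members, smaller than those of Combo, and none of the 5 passed the test. Tpm1 stood at 443, 392 and 758 CPM with PD173074 in A1005, A1129 and A1471, Tpm2 at 17.5, 95.5 and 103 CPM, and Cald1 at 625, 201 and 434 CPM. The log2 fold changes against DMSO were 0.80 ± 0.25 for Cnn2, 0.42 ± 0.64 for Cald1, 0.36 ± 0.39 for Tpm1, 0.12 ± 0.94 for Tpm2 and -0.41 ± 0.70 for Mylk. In the unpaired edgeR fit 0 members were called, as were 0% of tested genes, with 1 member (Cnn2) and 307 genes at an unadjusted p under 0.05. DESeq2 and limma-voom also called 0 members, and called 17 and 0 genes. In the paired fit 0 members were called, beside 2.14% of tested genes, with 3 members at an unadjusted p under 0.05 and Cnn2 nearest to the threshold (edgeR adjusted p = 0.0912). Cnn2, Tpm1 and Cald1, 3 of the 5, were higher in all 3 lines, beside 24.1% of tested genes. For 1 of 5, Cnn2, the PD173074 libraries all lay above the DMSO libraries, beside 3.35% of tested genes.

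Crizotinib alone gave log2 fold changes between -0.14 (Cnn2) and 0.24 (Mylk) for the 5 tested members, each smaller than its standard error. Tpm1 stood at 409, 263 and 487 CPM, Tpm2 at 15.03, 94.6 and 83.8 CPM, and Cald1 at 564, 127 and 269 CPM in A1005, A1129 and A1471. In the unpaired edgeR fit 0 members and 0% of tested genes were called, with 0 members and 18 genes at an unadjusted p under 0.05, and in the paired fit 0 members and 0% of tested genes, with 0 members and 258 genes at an unadjusted p under 0.05. DESeq2 and limma-voom called 0 members, and 1 and 0 genes. Mylk alone, 1 of the 5, was higher in all 3 lines, beside 17.9% of tested genes.

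**Figure D2:**
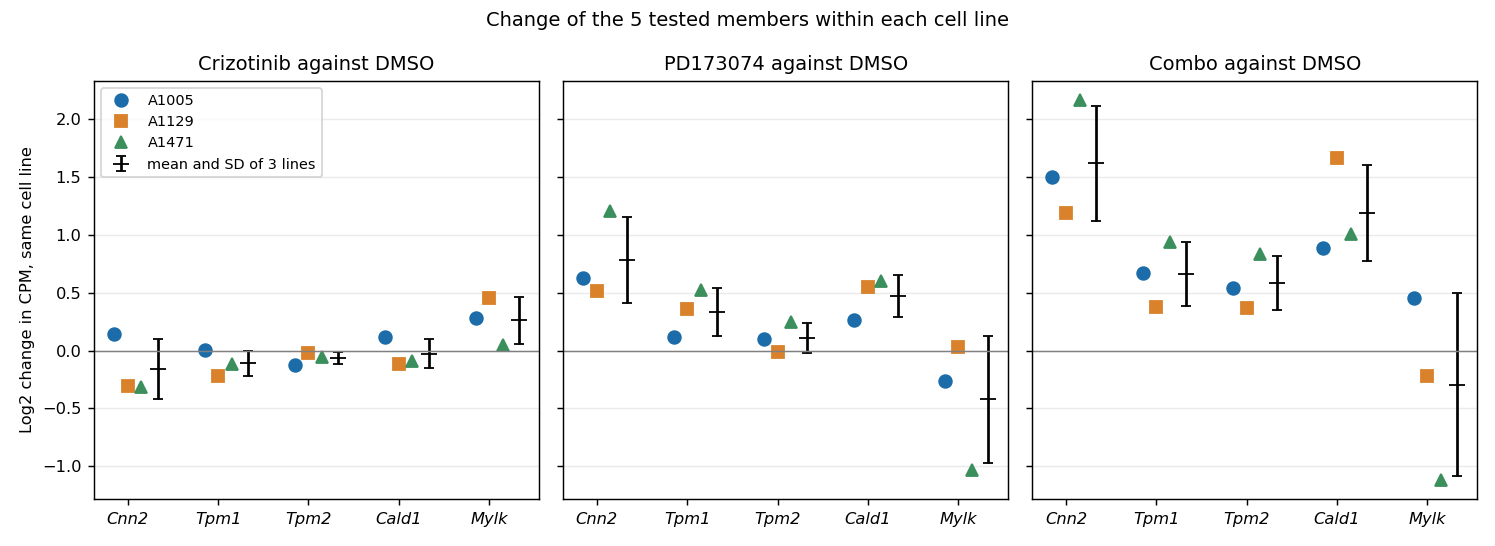
Log2 change in CPM of the 5 tested members relative to DMSO in the same line, for each treatment. Coloured points are the lines and black marks the mean and SD of 3 lines; with Combo, Cnn2, Tpm1, Tpm2 and Cald1 lie above 0 in all 3 lines, while Mylk lies between -1.12 and 0.46.

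Combo was next compared with each inhibitor alone. Against Crizotinib, Cnn2 stood 1.80 ± 0.25 higher on the log2 scale (edgeR adjusted p = 0.00187) and was the 1 member called in the unpaired fit, in which 5.4% of tested genes were called higher, and without A1471 it stood at 1.44 (edgeR adjusted p = 0.0677). In the paired fit Cnn2, Tpm1, Tpm2 and Cald1 were called higher, 4 of 5, beside 27.4% of tested genes, and without A1005 Mylk was called lower too (log2 fold change -0.92, edgeR adjusted p = 0.0318). Against PD173074, the log2 difference of Cnn2 was 0.86 ± 0.25 (edgeR adjusted p = 0.0834), and 0 members were called, beside 0.838% of tested genes called higher, with 1 member at an unadjusted p under 0.05. DESeq2 called Cnn2 there (adjusted p = 0.00876) and limma-voom called 0 members. Cnn2, Tpm2 and Cald1 were called higher in Combo than in PD173074 in the paired fit, 3 of 5, beside 19.6% of tested genes, at log2 fold changes of 0.85 ± 0.20, 0.48 ± 0.11 and 0.73 ± 0.17 (edgeR adjusted p = 0.0092, 0.00598 and 0.00807). This paired count fell to 1 without A1129 and to 2 without A1471. The comparisons with Combo share the Combo libraries, and those with DMSO share the DMSO libraries, so their values are not independent.

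Whether Combo exceeded the sum of both inhibitors was asked with the departure from additivity, which is Combo minus Crizotinib minus PD173074 plus DMSO on the log2 scale. It was 0.997 ± 0.35 for Cnn2, 0.62 ± 0.90 for Cald1, 0.53 ± 1.33 for Tpm2, 0.47 ± 0.55 for Tpm1 and 0.15 ± 0.99 for Mylk. In the unpaired edgeR fit 0 members departed, with 1 (Cnn2) at an unadjusted p under 0.05, and DESeq2 and limma-voom called 0, beside 0.00723% of tested genes called higher by edgeR. In the paired fit Cnn2 (0.99 ± 0.29, edgeR adjusted p = 0.0428) and Tpm2 (0.54 ± 0.15, edgeR adjusted p = 0.036) were called higher, 2 of 5, beside 5.46% of tested genes, and neither was called when any of the 3 lines was left out of that fit.

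The lines differed from each other in 4 of the 5 tested members. In a fit of treatment plus line, which treats the 4 libraries of a line as its replicates and so says nothing of the spread between tumours, Tpm2 was higher in both other lines than in A1005, with log2 fold changes of 2.51 ± 0.10 for A1129 and 2.54 ± 0.10 for A1471 (edgeR adjusted p = 2.18e-08 and 2.22e-08). Its levels in A1005 ran from 15.03 to 23.9 CPM over the 4 treatments, against 94.6 to 124 in A1129 and 83.8 to 155 in A1471. Cald1 went the other way, with log2 fold changes of -1.70 ± 0.15 for A1129 and -0.81 ± 0.15 for A1471 over A1005. Mylk was also highest in A1005, with -1.62 ± 0.24 for A1129 and -1.27 ± 0.24 for A1471. Tpm1 was highest in A1471, by 0.51 ± 0.11 over A1005 and 0.99 ± 0.11 over A1129. Cnn2 differed by -0.23 ± 0.18, 0.08 ± 0.18 and 0.31 ± 0.18 between A1129 and A1005, A1471 and A1005, and A1471 and A1129, none of which passed the test (lowest edgeR adjusted p = 0.181). Called were 4 of 5 members for A1129 against A1005, beside 57.8% of tested genes, 4 of 5 for A1471 against A1005, beside 57.7%, and 2 of 5 (Cald1 and Tpm1) for A1471 against A1129, beside 45.9%.

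Within each family, the members were set beside their paralogs as shares of counts per kilobase of exon. Tpm1 and Tpm2 together made up 13.9, 14.9 and 21.3% of the 4 tropomyosin genes with DMSO in A1005, A1129 and A1471, and 25.6, 31.1 and 35.8% with Combo. The share of Combo exceeded that of DMSO by 14.1 percentage points on average, in 3 of 3 lines, and no Combo library overlapped a DMSO library (exact permutation test, two-sided p = 0.1, the smallest that 3 against 3 libraries allow). Of the paralogs, Tpm3, a nonmuscle tropomyosin, fell with Combo by 0.75 ± 0.18 on the log2 scale (edgeR adjusted p = 0.0209), whereas Tpm4, the most abundant tropomyosin per kilobase, had a log2 fold change of -0.42 ± 0.19 that did not pass (edgeR adjusted p = 0.172). With Crizotinib the share of Tpm1 and Tpm2 was 14.3, 15.7 and 21.5%, and with PD173074 it was 15.1, 17.0 and 25.3%. Tropomyosin genes resemble each other in sequence, so reads that fit more than 1 of them may have been left uncounted.

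In the calponins, Cnn2 and Cnn1 together made up 27.9, 29.2 and 27.1% of the family with DMSO in A1005, A1129 and A1471, with Cnn1 at 0, and 43.4, 34.2 and 51.5% with Combo. The rest was Cnn3, the third calponin, which also rose with Combo (log2 fold change 0.67 ± 0.12, edgeR adjusted p = 0.00612). The share was higher with Combo in 3 of 3 lines, by 15.01 percentage points on average (exact permutation test, two-sided p = 0.1, the smallest possible). With PD173074 it was 35.9, 32.3 and 40.4%, also in 3 of 3 lines above DMSO.

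**Figure D3:**
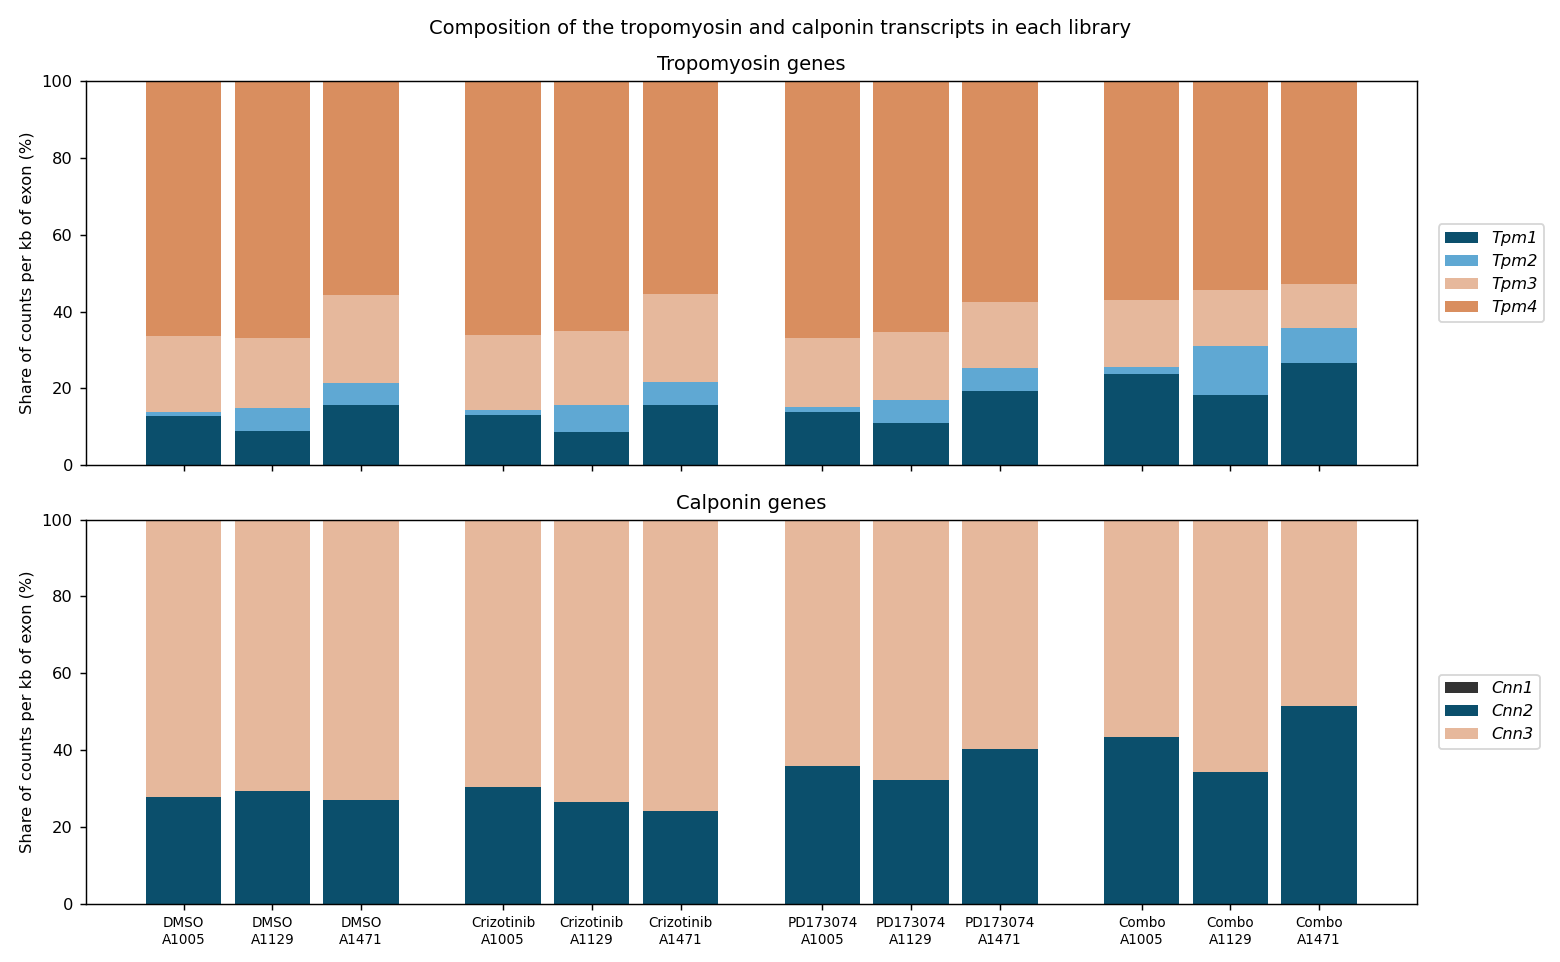
Share of each gene in the counts per kilobase of exon of its family, in percent, for the tropomyosin genes (upper panel) and calponin genes (lower panel), in each of the 12 libraries grouped by treatment. Tpm1 and Tpm2 together make up 13.9 to 21.3% with DMSO and 25.6 to 35.8% with Combo, and Cnn1 is at or near 0 throughout.

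The other genes of the contractile and SRF programmes were counted in the same fit of Combo against DMSO. Of 15 other smooth muscle genes 9 were tested and 0 were called in the unpaired edgeR fit, with 1 at an unadjusted p under 0.05, 1 called by DESeq2 and 0 by limma-voom. The paired fit called 4 higher and 1 lower. All unpaired edgeR counts of lists stand beside 6.1% of tested genes called higher and 8.28% lower. All paired counts of lists stand beside 28.6% of tested genes called higher and 26.2% lower. The first tested genes of the smooth muscle list, in order, were Smtn (smoothelin), Des (desmin), Synm (synemin) and Csrp1 (a LIM protein of actin filaments). Smtn, Des and Csrp1 had unpaired log2 fold changes of -0.64 ± 0.51, 1.05 ± 2.47 and 0.96 ± 0.91, and paired adjusted p-values from edgeR of 0.0128, 0.141 and 8.9e-06. Des was read in 1 line, with 24 counts with DMSO and 66 with Combo in A1005 against at most 2 in any library of A1129 or A1471. The DMSO libraries held 8, 4 and 1 counts of Synm and the Combo libraries 191, 47 and 5, so it passed the filter through its higher groups and its call, 1 of the 4, is not read as a difference. Of 15 paralogs of the members 12 were tested, of which Cnn3 and Myl6, an essential light chain, were called higher and Tpm3 lower unpaired, and 5 were called higher and 2 lower in the paired fit. The first of them, the actin genes Actb and Actg1, had log2 fold changes of 0.09 ± 0.26 and 0.49 ± 0.29 (edgeR adjusted p = 0.863 and 0.305), and Tagln2 had -0.53 ± 0.57 unpaired (edgeR adjusted p = 0.6) and -0.59 ± 0.16 in the paired fit (edgeR adjusted p = 0.0101).

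Of the SRF and MRTF regulators, 9 of 11 were tested. Mrtfb, an MRTF gene, rose with Combo (log2 fold change 0.76 ± 0.18, edgeR adjusted p = 0.0236), and Fhl2 (a LIM cofactor, named after its values were seen) fell by 1.02 ± 0.26 on the log2 scale (edgeR adjusted p = 0.0305). Srf itself had -0.18 ± 0.26 (edgeR adjusted p = 0.721), at 56.2 ± 8.18 CPM with DMSO and 49.6 ± 18.5 with Combo (SD, n = 3). Mrtfa had 0.45 ± 0.33 unpaired (edgeR adjusted p = 0.415) and 0.46 ± 0.09 in the paired fit (edgeR adjusted p = 0.00134). Of the 9, 3 were called higher and 2 lower in the paired fit, shares near the 28.6% and 26.2% of all tested genes.

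The 14 actin-linked MRTF targets were genes of focal adhesions and actin crosslinking beside others, among them Ccn1, Ccn2, Msn and Tpm4. Tpm4 is also in the list of paralogs. Of these 14 genes, 13 were tested. Unpaired, 3 were called higher (Pdlim5, Lima1 and Filip1l) and 1 lower (Msn), with a list median log2 fold change of 0.89 against 0.02 over all tested genes, and in the paired fit 9 were called higher and 1 lower. The first 4 in list order, Vcl (vinculin), Flna (filamin A), Actn1 (alpha-actinin) and Zyx (zyxin), had unpaired log2 fold changes of 0.84 ± 0.44, 0.97 ± 0.35, 0.9999 ± 0.49 and 0.43 ± 0.31, each called higher in only the paired of the edgeR fits (edgeR adjusted p = 0.00678, 0.00124, 0.00213 and 0.0155). Of 9 ERK-linked SRF targets, all tested, 0 were called higher and 2 lower (Egr3 and Ier3), with a list median of -0.76. In the paired fit 3 were lower, a share near the 26.2% of all tested genes. The first 4 were Egr1, Egr2, Egr3 and Fos, early response transcription factors, with log2 fold changes of -1.18 ± 0.67, 0.04 ± 1.24, -4.01 ± 0.80 and 1.72 ± 0.85, of which Egr3 passed the test (edgeR adjusted p = 0.0103).

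**Figure D4:**
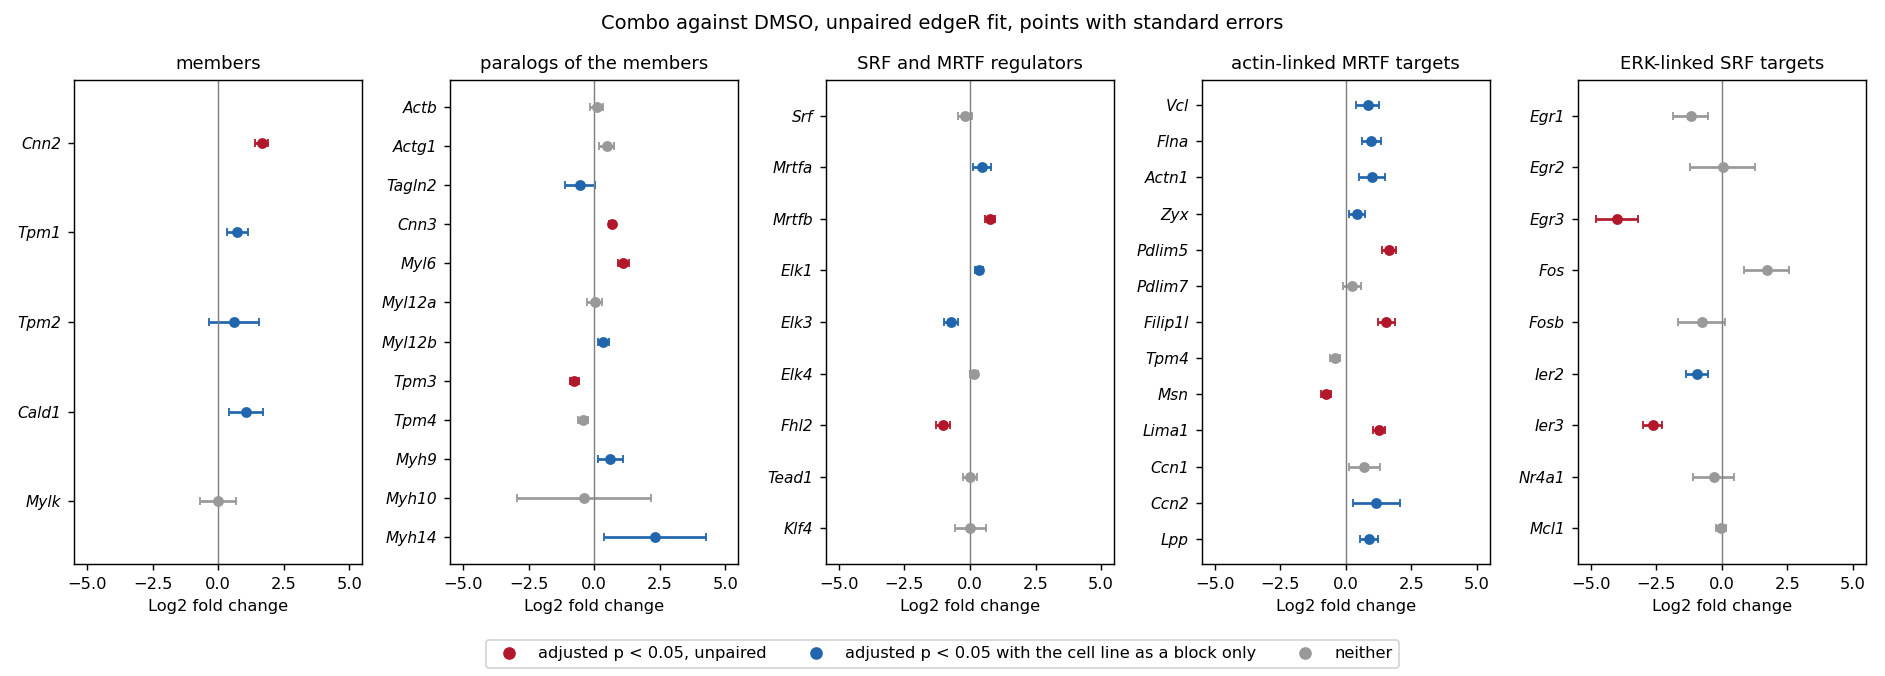
Log2 fold change with its standard error, Combo against DMSO in the unpaired edgeR fit, for the tested genes of 5 lists. Red points passed an adjusted p of 0.05 unpaired, blue points in the paired fit only, and grey points in neither. Called higher in at least 1 of the fits were 4 of the 5 tested members and 9 of 13 actin-linked MRTF targets. Called lower were 3 of 9 ERK-linked SRF targets. In the paired fit 28.6% of all tested genes were called higher and 26.2% lower.

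Over the 12 libraries, after the mean of each line was removed, log2 CPM of Cnn2 correlated with that of Tpm1 (r = 0.98), Tpm2 (r = 0.94) and Cald1 (r = 0.89), and ran against that of Mylk (r = -0.67), as a description of libraries that share lines and treatments. Without that step the values were 0.72, 0.15, 0.63 and -0.25, and that of Tpm2 with Cald1 was -0.55. Among 9219 other genes with a mean log2 CPM of at least 3, the 5 most like Cnn2 were Syt11, Irf9, Lactb, Bcar1 and D5Ertd579e, each with r of 0.99. Cnn2 was taken here after its values were seen, in place of Acta2 and Tagln, whose counts were too few to compare.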

How the data were processed

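The authors deposited raw read counts for each Ensembl gene, not normalized, made by sequencing on a NextSeq500 and, per the submitters' processing notes, with bcl2fastq, STAR, HTSeq and build mm10 (versions, annotation release and use of strand are not given in the sources used here). Treatment and line came from the labels. Coordinates and exon lengths came from GENCODE M21 of the same build. After filterByExpr (counts of at least 10, totals of at least 15) and TMM scaling, edgeR 4.0.16 (R 4.3.3) ran its quasi-likelihood test in 1 unpaired fit of treatment over 12 libraries, as the study's analysis was unpaired, with Benjamini-Hochberg adjustment over 13836 genes and a threshold of 0.05. SE is the log2 fold change divided by the square root of F. CPM used TMM-scaled library sizes, and log2 CPM by line a prior count of 2.

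The libraries are paired by cell line: deviations from the treatment means correlated at 0.87 on average over 18 pairs of libraries of the same line (lowest 0.77) and at -0.42 over 36 pairs of different lines. The value of the paired fit, with line as a block, is therefore given where it changes a call. Each replicate is a different line. Unpaired p-values therefore measure the spread between 3 tumours' lines, with libraries of the same line treated as independent. Paired p-values measure the spread left within lines after the line and treatment effects are removed. No 2 libraries agreed within sampling noise (lowest chi-square per degree of freedom 4.9 over 66 pairs). DESeq2 1.42.0, limma 3.58.1 (voom), other scalings and filters, and leaving out each line were alternatives. The fits of Combo against DMSO were also run on simulated counts with the same spread for every gene. That spread was not estimated from these data, and the outcome is not reported here. Python 3.11.15 with scipy and matplotlib gave tables, exact tests and plots. Intervals and floors cover counting error only, since reads carried no molecular identifiers.

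The members and lists were chosen with earlier results of these data known. All members were named, of other lists the first 4 tested genes in list order with Srf, Mrtfa, Mrtfb and Myocd, and any other gene after its values were seen. Some genes and a list that this rule covers are not reported here.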

Additional observations from a re-analysis of the deposited data

How the results depend on the processing

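The count of tested members called moved little between unpaired settings: 1 with Combo against DMSO and against Crizotinib under DESeq2, limma-voom, both other scalings, both other filters, only the groups compared and a log2 fold change of at least 1.5, and 0 with either inhibitor alone under every alternative. Leaving out 1 line gave 0 to 1 for Combo against DMSO and against Crizotinib, with 0 without A1471; the cause was not tested. With the cell line as a replicate block the counts were 4, 4, 3 and 2 for Combo against DMSO, Crizotinib and PD173074 and for the departure from additivity, and 0 for either inhibitor alone, and DESeq2 gave 1 for Combo against PD173074. With the block and 1 line left out, an alternative chosen after seeing the data, they were 4 to 4, 4 to 5, 1 to 3 and 0 to 0. The 4 members that differed between lines were 4 under each scaling and filter tried. Over all tested genes, 1990 were called for Combo against DMSO, and 7578 with the block, 3032 with DESeq2, 1160 with no filter, 594 with only the groups compared, 324 without A1129 and 120 without A1471.

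The signs that turned belonged to values that no unpaired test called, and the cause was not tested. Cald1 with Crizotinib was -0.019 with the replicate block, -0.028 with limma-voom, -0.092 to 0.063 leaving out each line (lowest without A1005) and -0.10 with the block without A1005. Mylk with Combo against DMSO was 0.0037 with DESeq2, 0.0032 with its size factors, 0.031 with total counts alone, 0.024 with at least 10 counts in every library, -0.74 to 0.32 leaving out each line and 0.19 with the block without A1471. Mylk against PD173074 was -0.17 to 0.53 leaving out each line and -0.17 with the block without A1005. The departure of Mylk was -0.031 with the block, -0.12 with limma-voom, -0.38 to 0.34 leaving out each line, and -0.40 and -0.066 with the block without A1005 and without A1471. The block changed no other call of a member.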

Other observations

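Tgfb2, a ligand of the TGF beta receptors, rose with Combo (log2 fold change 3.11 ± 0.73, edgeR adjusted p = 0.0201), from 82, 35 and 39 counts under DMSO in A1005, A1129 and A1471 to 836, 258 and 477. It was the 1 of 10 genes of the TGF beta response called unpaired, while with the line as a block 4 were called higher and 1 lower, beside 28.6% and 26.2% of all tested genes. Smad7, Skil and Tgfbi, also of that list, had unpaired log2 fold changes of -0.97 ± 0.64, 0.33 ± 0.29 and 1.94 ± 0.75, and with the block Tgfbi was called higher (edgeR adjusted p = 0.00106) and Smad7 lower (edgeR adjusted p = 0.0153). Of 5 tested mesenchymal markers, Twist1, a transcription factor, fell by 1.09 ± 0.15 on the log2 scale (edgeR adjusted p = 0.00156), and Zeb2, another, had 0.52 ± 0.43 unpaired (edgeR adjusted p = 0.481) and 0.51 ± 0.14 with the block, where it was called higher (edgeR adjusted p = 0.0133). Fn1, Zeb1 and Vim had unpaired log2 fold changes of 1.64 ± 0.87, 0.26 ± 0.27 and -0.14 ± 0.23 and were called in neither fit. These markers were named after their values were seen.

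Of 6 tested myofibroblast and fibroblast markers 0 were called unpaired by edgeR, with 2 at an unadjusted p under 0.05, 2 called by DESeq2 and 0 by limma-voom, and 5 were called higher with the block, beside 28.6% of all tested genes. Among these 5, Postn, a matrix gene named after its values were seen, was read 0, 0 and 1 times under DMSO and 5, 33 and 242 times under Combo in A1005, A1129 and A1471, and passed the filter through its treated libraries, so its call is not read as a difference. Col1a1 was read in 1 line, with 2929 counts with DMSO and 13654 with Combo in A1005 against at most 9 in any library of A1129 or A1471. Myh10, a nonmuscle myosin heavy chain gene named after its values were seen, had 0, 0, 2 and 9 counts in A1005 with DMSO, Crizotinib, PD173074 and Combo, and 3923 to 5701 counts in the libraries of the other lines.

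Of the remaining marker lists, 0 genes were called unpaired by edgeR, DESeq2 or limma-voom among the pericyte, skeletal and cardiac muscle, immune and luminal epithelial markers, of which 0 had an unadjusted p under 0.05 in edgeR. In the paired fit 1 pericyte marker (Mcam) and 1 immune marker (Cd68) were called higher and 2 of 3 tested luminal keratin genes (Krt18 and Krt19) lower. That fit called 28.6% of all tested genes higher and 26.2% lower. Krt19 was read in 1 line, with 563 counts with DMSO and 110 with Combo in A1005 against at most 2 in any library of A1129 or A1471. Of 4 tested myoepithelial markers 0 were called unpaired by edgeR, with 1 at an unadjusted p under 0.05, 1 by DESeq2 and 0 by limma-voom, and Mme, a membrane peptidase, was called higher in the paired fit, from 201, 8 and 17 counts under DMSO to 5493, 484 and 888 under Combo. These genes were named after their values were seen.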
